A study of Rattus norvegicus with 23 samples.

Results

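The cell division genes of the rat lung, 36 listed genes that encode cyclins, their kinases, replication factors and mitotic proteins, were followed across air and 2 concentrations of eucalyptus wood smoke. They were taken by gene symbol, from a list chosen with earlier results of these data known. Of the 36, 34 had a row in the table of 19249 genes, and Ccnb2 and E2f1 were not analysed here. A mean of at least 10 normalized counts over the 22 libraries, which was needed for testing, was reached by 31 of them. In high smoke against air, Cdk4 rose 1.29-fold and Foxm1 fell to 0.635 of the air level, and the other 29 did not pass the threshold, an adjusted p below 0.05 over all genes tested. None of the 31 passed it in low smoke against air or in high smoke against low smoke.

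The rats were males that breathed filtered air (7 libraries), low smoke set to a target of 10 ppm carbon monoxide (8 libraries) or high smoke set to 20 ppm (7 libraries). Exposure was whole-body, on 4 days of the first week and, after 3 days of rest, on 3 days of the second, a schedule modelled on fire line shifts. Each library came from frozen lung of a rat, so that the values are averages over all cells of the piece, and the labels give neither strain nor age. In such bulk tissue, fewer dividing cells and less RNA per cell cannot be told apart.

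A cell that enters division passes a restriction point in G1, copies its DNA in S phase and then separates the copies in mitosis. D-type cyclins with Cdk4 phosphorylate the retinoblastoma protein, which frees E2F factors to switch on the genes of S phase, and cyclin E with Cdk2 carries the cell into replication. The genes of G2 and mitosis are held down in resting cells by the DREAM complex, which contains MuvB. They are switched on later, through MuvB with B-Myb and Foxm1, at promoter elements named CHR and CCAAT box. In the adult lung most cells rest, and dividing cells are few.

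The promoters of the members carried different letters in the genes of mitosis and in those of G1 and S phase. The 150 bases before the annotated start were available for 25 of the 34 genes found, 13 of mitosis and 12 of G1 and S phase (RefSeq, build GRCr8). They were searched on both strands for the CHR letters TTTGAA and TTTAAA, for the CCAAT box as CCAAT, and for E2F sites as TTTCCCGC, TTTGGCGC, TTTCGCGC and TTTGCCGC. Examples are printed, 5′ to 3′ on the strand of the gene: Cdk4, the member that rose, mitosis genes that show the CHR, and helicase genes that show the E2F site. Capitals mark every match, with ATTGG and TTCAAA as the reverse strand of CCAAT and TTTGAA.
Cdk4, chr7:64771303-64771452, plus strand: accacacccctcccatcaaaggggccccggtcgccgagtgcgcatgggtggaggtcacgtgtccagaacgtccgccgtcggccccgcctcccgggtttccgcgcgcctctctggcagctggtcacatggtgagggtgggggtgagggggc
Mki67, chr1:199952594-199952743, minus strand: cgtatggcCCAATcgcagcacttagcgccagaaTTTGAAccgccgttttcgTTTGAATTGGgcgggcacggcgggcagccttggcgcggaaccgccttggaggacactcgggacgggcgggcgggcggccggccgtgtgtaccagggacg
Top2a, chr10:84473094-84473243, minus strand: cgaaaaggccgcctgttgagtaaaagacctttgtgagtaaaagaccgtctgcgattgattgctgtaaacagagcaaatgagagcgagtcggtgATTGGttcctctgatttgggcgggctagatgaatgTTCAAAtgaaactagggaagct
Ccnb1, chr2:33655226-33655375, minus strand: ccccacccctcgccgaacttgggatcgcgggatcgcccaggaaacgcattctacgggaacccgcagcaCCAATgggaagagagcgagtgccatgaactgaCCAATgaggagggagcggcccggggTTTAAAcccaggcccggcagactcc
Cdk1, chr20:19265143-19265292, plus strand: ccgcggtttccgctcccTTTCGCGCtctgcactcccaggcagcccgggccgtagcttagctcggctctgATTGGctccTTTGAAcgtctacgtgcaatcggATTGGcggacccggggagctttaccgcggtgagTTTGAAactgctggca
Mcm5, chr19:13488663-13488812, plus strand: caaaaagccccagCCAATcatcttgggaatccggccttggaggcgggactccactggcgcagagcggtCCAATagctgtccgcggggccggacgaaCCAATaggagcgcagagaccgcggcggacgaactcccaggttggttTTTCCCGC
Mcm6, chr13:42404353-42404502, minus strand: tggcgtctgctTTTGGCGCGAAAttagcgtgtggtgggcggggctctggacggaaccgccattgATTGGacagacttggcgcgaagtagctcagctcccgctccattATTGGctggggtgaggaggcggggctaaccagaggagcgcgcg

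A CHR match stood in 12 of the 13 mitosis promoters and in 1 of the 12 of G1 and S phase, against 15.0% of 33469 rat promoters of the same length. The mitosis gene without one was Bub1b, and the G1 gene with one was Ccne1. In Cdk1 and Top2a a CHR lay 16 to 11 and 22 to 17 bases before the start. E2F letters stood in 1 of 13 mitosis promoters, that of Cdk1, and in 5 of 12 of G1 and S phase, those of Mcm2, Mcm5, Mcm6, Mcm7 and Tyms, against 1.14% of all. The CCAAT box stood in 9 of 13 and 6 of 12, against 23.5% of all. In Mki67 a CHR and a CCAAT box overlap, and in Mcm6 both E2F matches overlap on opposite strands. Cdk4 held none of these letters. The window of Foxm1 was not used here. A match is a run of letters, not shown binding.

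Depth was 8484131 to 12055527 read equivalents per library. High smoke replicates 1, 3 and 7 stood apart on the first principal component of all tested genes, which held 19.7% of the variance, at 51.5, 41.7 and 36.5, while the other high smoke libraries lay at 0.3 to 8.8. Air replicate 3 stood apart on the second, which held 9.07%, at 44.6. No library was identical to another. The changes of Cdk4 and Foxm1 in high smoke against air are therefore also given without these libraries. Other results are with all libraries unless stated. The labels name neither litters nor cages, and p-values measure the spread between these libraries.

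The question in high smoke against air was which division genes differ at the higher concentration. Of the 31 members 1 rose and 1 fell, or 6.45%, against 16.3% of all 14414 genes (9.21% up and 7.05% down). As deposited, this was 1327 genes up and 1016 down; bringing every library to an equal total turned the split to 894 up and 1797 down, and Cdk4 and Foxm1 were called in both. A gene is said to have risen or fallen where its limma p, adjusted by Benjamini-Hochberg over all 14414 genes, was below 0.05. Before adjustment, 6 of 31 members had a p below 0.05, and 4428 of all genes did. The members' median log2 change was -0.08, with 12 above 0 and 19 below, against -0.0021 over all genes. All of these changes are on the log2(normalized count + 1) scale, which understates the change of low genes.

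Cdk4, the kinase that cyclin D activates in G1, was the member that rose. Its gene lies at chr7:70349863-70352419 on the plus strand (build rn6). It had 571 to 942 normalized counts in high smoke lungs with a median of 740.5, against 489 to 676 in air lungs with a median of 561. The groups overlapped: 5 of 7 high smoke libraries lay above every air library, and replicates 4 and 6 lay within the air range. The means were 730 ± 118 in high smoke and 564 ± 66.7 in air (SD, n = 7 each), and the log2 change was 0.37 with a standard error of 0.09 and a 95% interval of 0.18 to 0.55 (limma adjusted p = 0.00783). The exact two-sided rank-sum test gave p = 0.00408 and an adjusted p of 0.0566, short of the threshold. Without high smoke replicates 1, 3 and 7 the log2 change was 0.24 and the call was lost (limma adjusted p = 0.224). Without air replicate 3 it was 0.39 and still called (limma adjusted p = 0.00583). Its annotated span shares 169 bases with that of Tspan31 on the opposite strand. Whether the counting used strand is not given in the sources used here, so reads from that stretch cannot be told apart.

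Foxm1, the transcription factor that drives genes of G2 and mitosis, was the member that fell. Its gene lies at chr4:161685258-161696306 on the plus strand (build rn6). It had 23.9 to 52.5 normalized counts in high smoke lungs with a median of 38.6, against 44.9 to 87.5 in air lungs with a median of 60.0. The lowest values were those of high smoke replicates 3 and 1, and 4 of 7 high smoke libraries lay below every air library. The means were 39.6 ± 11.2 in high smoke and 61.8 ± 12.9 in air (SD, n = 7 each), and the log2 change was -0.65 with a standard error of 0.17 and a 95% interval of -1.01 to -0.30 (limma adjusted p = 0.0116). The exact rank-sum test gave p = 0.00408 and an adjusted p of 0.0566. Without high smoke replicates 1, 3 and 7 it was -0.40 (limma adjusted p = 0.294). Without air replicate 3, whose 87.5 was the highest value of all, it was -0.57 and still called (limma adjusted p = 0.0220).

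**Figure D1:**
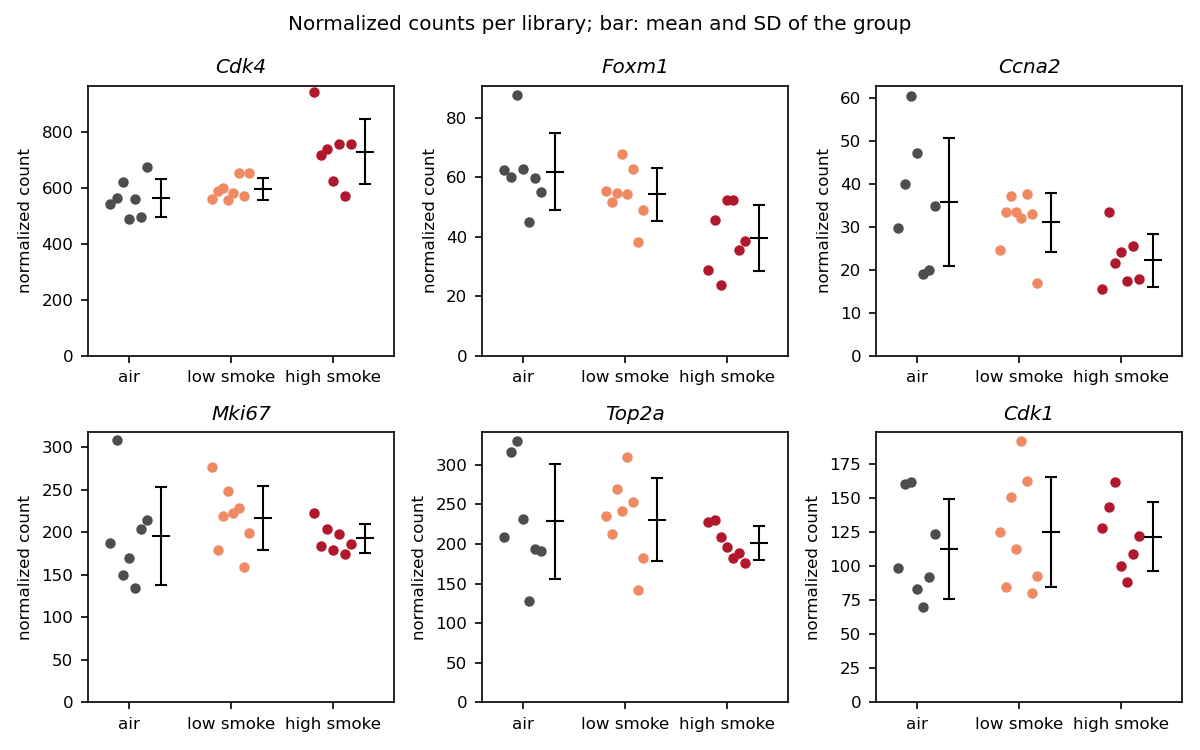
Normalized counts of Cdk4, Foxm1, Ccna2, Mki67, Top2a and Cdk1 (y axis, from 0) in each library of air, low smoke and high smoke; points are libraries and bars are the group mean and SD. High smoke lungs reach 942 for Cdk4 and go down to 23.9 for Foxm1, while Mki67, Top2a and Cdk1 overlap widely between groups.

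The most used markers of dividing cells were not called. Mki67, which encodes the Ki-67 protein of cycling cells, had 175 to 223 normalized counts in high smoke lungs with a median of 186, against 135 to 308 in air lungs with a median of 188. The high smoke libraries all lay inside the air range, and the log2 change was 0.02 with a 95% interval of -0.27 to 0.31. Top2a, the topoisomerase that untangles copied DNA, had 176 to 230 in high smoke (median 196), against 128 to 331 in air (median 209). Its high smoke values too lay inside the air range, with a log2 change of -0.13 and an interval of -0.48 to 0.22. Cdk1, the kinase that starts mitosis, had 88.2 to 162 in high smoke (median 122), against 69.8 to 162 in air (median 98.8). The groups overlapped over nearly their whole range, and the log2 change was 0.15 with an interval of -0.27 to 0.56. Ccnd1, the D-type cyclin that answers growth factors, had 4228 to 5126 in high smoke (median 4645), against 4082 to 5157 in air (median 4561). Its interval was the narrowest of these genes, -0.12 to 0.17 around a log2 change of 0.03.

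Among the G1 genes, the D-type cyclins and cyclin E2 differed little between high smoke and air. The log2 changes of Ccnd2, Ccnd3 and Ccne2 were 0.06, 0.06 and 0.17, and that of Cdk2, the partner of cyclin E, was -0.08. The span of Ccne2 shares 522 bases with that of Ints8 on the opposite strand. The median of the 6 tested G1 genes was 0.06. None of the 3 tested genes of nucleotide supply and the replication clamp passed, too few to set against the 16.3% of all genes that did. Rrm1, the large subunit of ribonucleotide reductase, stood at 0.08, Pcna, the sliding clamp of DNA polymerase, at 0.15 and Tyms, which makes thymidylate, at -0.05.

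The 6 subunits of the MCM helicase, which opens DNA at origins as a ring of all 6, did not move together. Mcm4 had 170 to 318 normalized counts in high smoke with a median of 264, against 172 to 236 in air with a median of 208. Its log2 change was 0.29 with an interval of 0.07 to 0.52 and missed the threshold (limma adjusted p = 0.0636). Mcm5 stood at 0.34 (0.00 to 0.67, limma adjusted p = 0.160), and the groups overlapped, with the highest air value of 181 in replicate 3. Mcm4 passed without high smoke replicate 5 and Mcm5 without air replicate 3, and neither did in its other 33 alternatives. The highest high smoke values of both were those of replicates 3 and 1, at 318 and 297 for Mcm4 and 191 and 155 for Mcm5. The other subunits stood lower, with -0.01 for Mcm2, -0.05 for Mcm7, -0.20 for Mcm3 and -0.23 for Mcm6. The differences between subunits were not tested.

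Of the 16 tested genes of mitosis, 13 had a lower mean log2 level in high smoke than in air, and 1, Foxm1, passed. Over all tested genes 50.4% were lower. The median log2 change of the 16 was -0.20, and they ranged from -0.65 to 0.45. Air replicate 3, which held the highest air value of most of the 16, is part of these values. It raised the air mean of those genes, so their lower level in high smoke rests in part on that library. The median without it is not given here. Ccna2, the cyclin of S phase and early mitosis, had 15.6 to 33.4 normalized counts in high smoke (median 21.7), against 18.9 to 60.5 in air (median 34.8). The groups overlapped from 18.9 upwards, and the log2 change of -0.60, with an interval of -1.09 to -0.12, missed the threshold (limma adjusted p = 0.0804). It passed without high smoke replicate 2, without air replicate 5 and without air replicate 6, but not in the other 30 alternatives. Its highest air value was that of replicate 3, and its lowest high smoke value that of replicate 1. The whole annotated span of Ccna2 overlaps Exosc9 on the opposite strand, so reads of either gene cannot be told apart without strand. Aurka, a spindle pole kinase, stood at -0.29 (limma adjusted p = 0.154), Ccnb1, the cyclin of Cdk1, at -0.22 and Plk1, a kinase of mitotic entry and exit, at -0.17. Aurkb, the kinase of the chromosomal passenger complex, had 1539 to 3198 in high smoke (median 1751), against 1558 to 3310 in air (median 2336), and stood at -0.17. Its mean over all libraries, 2129 normalized counts, was far above the 70.4 of Aurka and 22.8 of Plk1. The reason was not tested.

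The genes of spindle and checkpoint proteins mostly had a lower mean log2 level in high smoke than in air, with air replicate 3 included. None of 9 was called, nor had any an unadjusted limma p below 0.05. Over all genes 16.3% were called, and a list this short does not show that its genes stay unchanged. The checkpoint kinases Bub1 and Bub1b stood at -0.23 and -0.32, the motor proteins Kif11 and Kif20a at -0.25 and -0.16, the spindle factor Tpx2 at -0.25 and Cdc20, which activates the anaphase promoting complex, at -0.11. The span of Kif20a shares 1911 bases with that of Cdc23 on the opposite strand, so reads from there cannot be told apart without strand. Nusap1, which bundles spindle microtubules, stood apart at 0.45 with an interval of -0.16 to 1.06. In the 31 members the 95% interval stayed within a 2-fold change either way for 28 and within 1.5-fold for 21. The exceptions at 2-fold were Ccna2, Foxm1 and Nusap1.

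**Figure D2:**
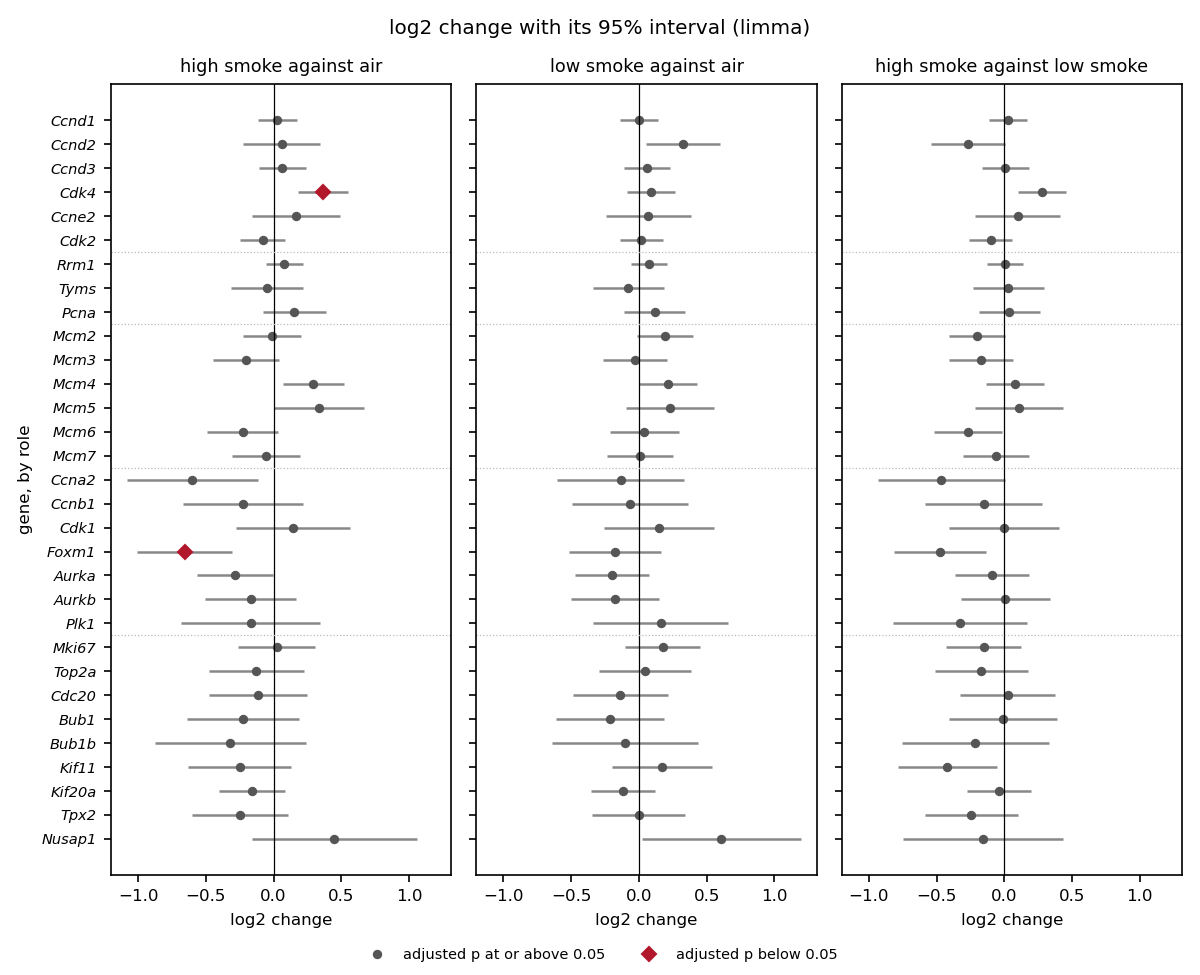
log2 change (x axis) with its 95% interval from limma for the 31 tested members (y axis, ordered by role) with high smoke set against air, low smoke against air, and the smoke groups against each other; red diamonds mark adjusted p below 0.05. Cdk4 at 0.37 and Foxm1 at -0.65 in high smoke against air are the marked genes, and most other intervals cross 0.

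Within the groups, the genes of mitosis moved together from rat to rat. In air replicate 3, 12 of the 16 mitosis members had their highest air value, against 21.4% of all tested genes, and in air replicate 5, 11 of 16 had their lowest, against 16.6%. The median log2 difference of the 16 genes from the air mean was 0.57 in air replicate 3, 0.43 in replicate 2 and -0.50 in replicate 5. In high smoke the same median ran from -0.31 to 0.10 with -0.20 in the middle, and in air from -0.50 to 0.57 with -0.03 in the middle, so that the high smoke range lay inside that of air. High smoke replicate 2 held the highest high smoke value in 9 of 16, against 13.1% of all genes, and low smoke replicate 7 the lowest low smoke value in 9 of 16, against 11.6%. These libraries and genes were picked after their values were seen, so the shares are a description.

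The same libraries did not hold for every gene. Mki67 had 149 normalized counts in air replicate 3, below 5 of the other 6 air libraries, while Top2a had 331 and Bub1 116 there, the highest of the air group. The 15 G1 and S phase members varied less: their median in air ran from -0.14 to 0.15. The residual SD on the log2 scale had a median of 0.36 in the mitosis members and 0.22 in those of G1 and S phase, against 0.23 over all genes. Fewer counts stood behind the mitosis members, with a median of their means of 57.4 normalized counts, not scaled to length, against 237 in G1 and S phase, and the part of this in their spread was not tested. Air replicate 3 had the fewest read equivalents of all libraries, 8484131. Summed markers of B cells were highest of the air group in replicate 3 at 1118 and lowest in replicate 5 at 450, and those of T cells were 481 and 259 there. T cell markers were highest of the air group in replicate 6 at 597, and B cell markers reached 1057 in replicate 7. Neither of these 2 libraries held the highest air value of any mitosis member. The part of B and T cells in the pattern was not tested.

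**Figure D3:**
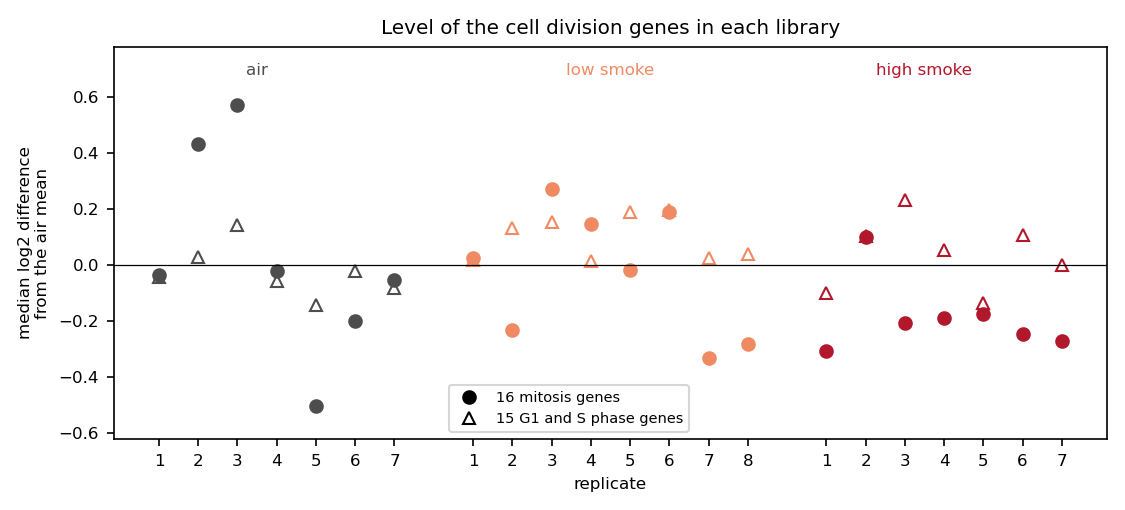
Median log2 difference from the air mean (y axis) over the 16 mitosis genes (filled circles) and the 15 G1 and S phase genes (open triangles) in each library (x axis), ordered air, low smoke, high smoke. Mitosis genes span -0.50 to 0.57 in air, with -0.03 in the middle, and -0.31 to 0.10 in high smoke, with -0.20 in the middle.

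**Figure D4:**
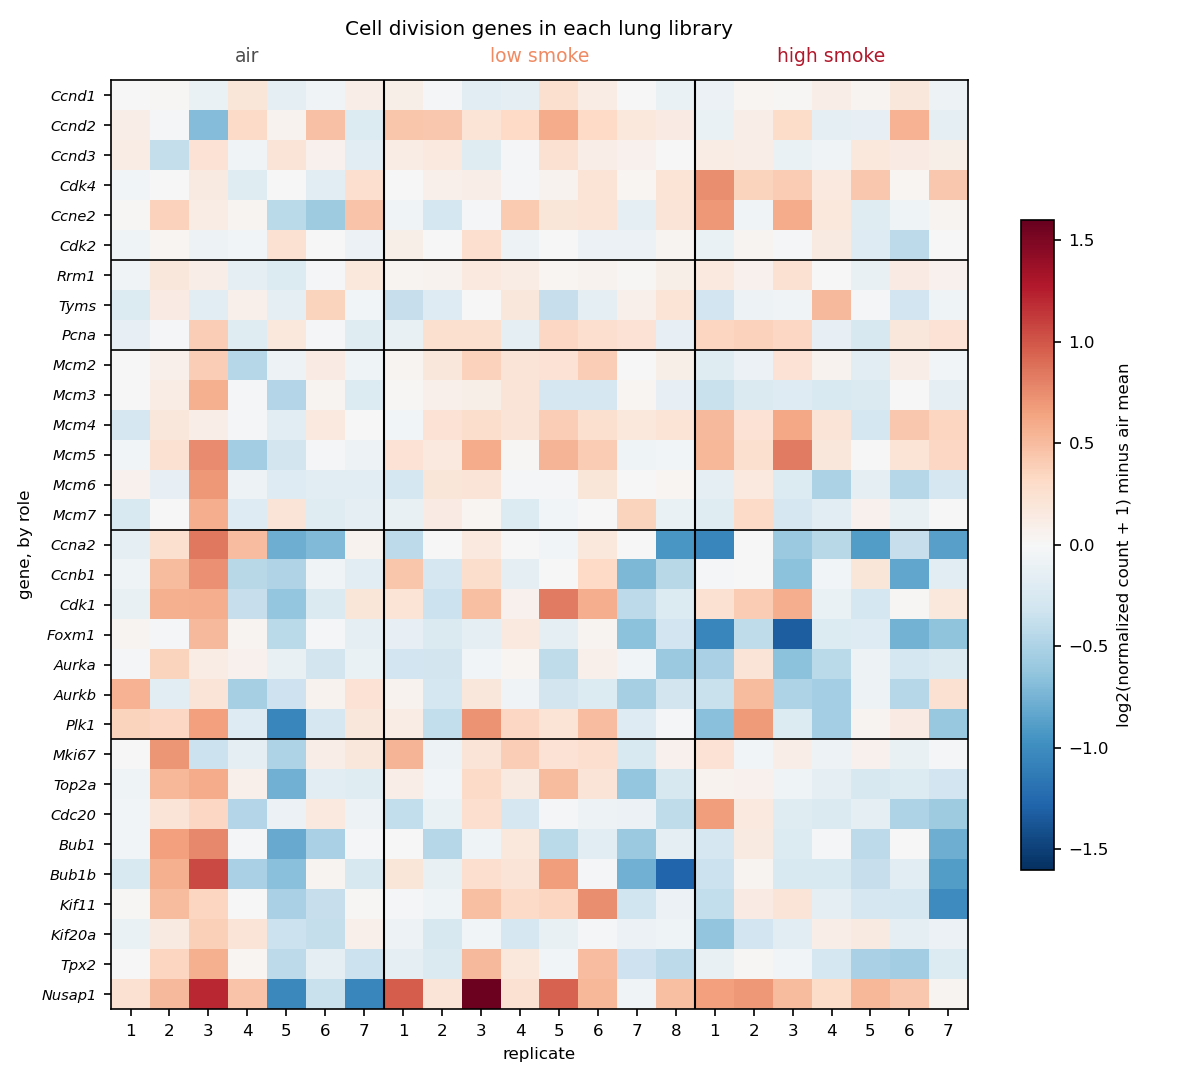
Difference of log2(normalized count + 1) from the air mean (colour, from -1.6 to 1.6) for the 31 tested members (rows, by role) in each of 22 libraries (columns, air, low smoke and high smoke). Red runs down most mitosis rows in air replicate 3 and blue in air replicate 5, and Foxm1 is bluest in high smoke replicate 3.

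The members Ccne1, Birc5 and Rrm2 lay below the level for testing. Ccne1, the other cyclin E, had 2.97 to 14.3 normalized counts in high smoke, against 2.47 to 21.6 in air. Birc5, or survivin, had 0.91 to 5.72 in high smoke, against 2.25 to 13.0 in air. Both groups overlapped for either gene. Rrm2, the small subunit of ribonucleotide reductase, averaged 1.97 over all libraries, and in 9 of 22 its value lay above 0 but below 0.3, less than 1 read. No fold change is given for it.

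Low smoke against air asked whether the lower concentration changes these genes. None of 31 members was called, and neither was any of all 14414 genes (0%), with 923 genes, 2 of them members, at an unadjusted limma p below 0.05. The exact rank-sum test also called none, with 908 genes, 2 of them members, at an unadjusted p below 0.05. The members' median log2 change was 0.04, with 18 above 0 and 13 below. Ccnd2, a D-type cyclin, had 622 to 857 normalized counts in low smoke with a median of 709, against 352 to 786 in air with a median of 593. The low smoke libraries overlapped the upper air libraries, and the log2 change was 0.33 (limma adjusted p = 0.724). Nusap1 had 16.5 to 53.0 in low smoke (median 24.9), against 7.86 to 41.0 in air (median 20.6), at a log2 change of 0.61 (limma adjusted p = 0.769).

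Mcm4 had 202 to 274 normalized counts in low smoke (median 242), against 172 to 236 in air (median 208). In 6 of 8 low smoke libraries it lay above every air library, at a log2 change of 0.21 that missed the threshold (limma adjusted p = 0.771). Cdk4 and Foxm1 were at 0.09 and -0.18, with intervals of -0.09 to 0.26 and -0.52 to 0.16. Mki67 had 159 to 276 in low smoke (median 220), and its log2 change from air was 0.17 with an interval of -0.10 to 0.45. Top2a, Cdk1 and Ccnd1 stood at 0.04, 0.15 and -0.0011. The 95% interval stayed within 2-fold for 30 of 31 members, all but Nusap1.

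High smoke against low smoke asked whether the concentrations differ from each other. None of the 31 was called in limma, against 6.78% of all genes (3.8% up and 2.98% down), and 4 had an unadjusted limma p below 0.05. The exact rank-sum test called none of the members either, with 4 below 0.05 before adjustment. Cdk4 had 571 to 942 normalized counts in high smoke, against 556 to 653 in low smoke with a median of 587. In 5 of 7 high smoke libraries it lay above every low smoke library, and the log2 change of 0.28, with an interval of 0.10 to 0.46, missed the threshold by little (limma adjusted p = 0.0502). Foxm1 had 23.9 to 52.5 in high smoke, against 38.2 to 67.7 in low smoke with a median of 54.7. In 3 of 7 high smoke libraries it lay below every low smoke library, at -0.48 with an interval of -0.82 to -0.14 (limma adjusted p = 0.0765).

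Cdk4 passed that comparison without high smoke replicate 4 (limma adjusted p = 0.0257), high smoke replicate 6 (0.0170), air replicate 3 (0.0435) or air replicate 7 (0.0416). Foxm1 passed it without high smoke replicate 4 (limma adjusted p = 0.0356) or replicate 5 (0.0473). Without high smoke replicates 1, 3 and 7 together, the adjusted p was 0.772 for Cdk4 and 0.834 for Foxm1. Kif11 and Mcm6 were the other members with an unadjusted p below 0.05, at -0.42 and -0.27. Of the 16 mitosis members 14 were lower in high smoke than in low smoke and none passed, while 49.8% of all genes were lower. High smoke is shared by this comparison and the first, so their values are not independent.

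Around the members, the other genes of replication held 6 calls in high smoke against air, 4 up and 2 down of 39 tested. That is 15.4%, near the 16.3% of all genes called. Rpa3 and Rpa2 belong to replication protein A, which coats single-stranded DNA. Rpa3 had 140.3 to 211 normalized counts in high smoke with a median of 159, against 80.3 to 134 in air with a median of 110.2. No high smoke library reached down to the air range, and the log2 change was 0.59 (limma adjusted p = 0.00266). Rpa2 rose by 0.39 log2 units (adjusted p = 0.0222) and Gmnn, the geminin that blocks origin licensing, by 0.39 log2 units (adjusted p = 0.0356). Pole, the catalytic subunit of DNA polymerase epsilon, fell by 0.47 log2 units (adjusted p = 0.0184). Outside the naming rule, and named after their values were seen, Cdt1, the licensing factor that geminin binds, rose by 0.59 log2 units (adjusted p = 0.0438) and Orc5 of the origin recognition complex fell by 0.24 log2 units (adjusted p = 0.0422).

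Other genes of mitosis held 2 rises and 3 falls of 46 tested in high smoke against air, or 10.9%, below the 16.3% of all genes. Ube2s, which extends ubiquitin chains for the anaphase promoting complex, had 420 to 555 normalized counts in high smoke with a median of 486, against 270.5 to 475 in air with a median of 344. The high smoke values overlapped air replicate 7 alone, and the log2 change was 0.45 (limma adjusted p = 0.00248). Subunits of condensin I went opposite ways: Ncaph rose by 0.73 log2 units (adjusted p = 0.0179) and Ncapg fell by 0.80 log2 units (adjusted p = 0.0254). Spc25 of the kinetochore fell by 0.54 log2 units (adjusted p = 0.0188). Named after its value was seen, Cenpu of the centromere fell by 0.89 log2 units (adjusted p = 0.0295). Of the 46, 31 were lower in high smoke than in air, and the median was -0.09. Within air, replicate 2 held the highest value of 26 of the 46, replicate 3 of 13, and replicate 5 the lowest of 20.

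Upstream factors and kinases were also mixed. Of 15 genes of the E2F, RB and DREAM group, 1 rose and 3 fell in high smoke against air, or 26.7% on 4 genes, against 16.3% of all genes. E2f4, a mostly repressive E2F, rose by 0.32 log2 units (limma adjusted p = 0.0151), while E2f3, an activating E2F, fell by 0.39 log2 units (adjusted p = 0.0441). Lin54, the MuvB subunit that binds the CHR, fell by 0.22 log2 units (adjusted p = 0.0378). Mybl2, which encodes B-Myb, had 10.8 to 21.9 normalized counts in high smoke with a median of 15.1, against 19.1 to 29.2 in air with a median of 26.3. In 6 of 7 high smoke libraries it lay below every air library, and it fell by 0.70 log2 units (adjusted p = 0.0390). Among 13 other kinases and phosphatases 2 rose, or 15.4%, near the 16.3% of all genes: Chek2, a kinase of the DNA damage checkpoint, and Pkmyt1, which holds Cdk1 inactive. Chek2 had 59.6 to 90.1 in high smoke with a median of 70.6, against 27.7 to 55.8 in air with a median of 43.2. All 7 high smoke libraries lay above every air library, at a log2 change of 0.67 (adjusted p = 0.00625). Pkmyt1 rose by 0.43 log2 units (adjusted p = 0.0375), and its span overlaps Paqr4 on the opposite strand.

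None of 5 tested inhibitors of cyclin-dependent kinases was called, with log2 changes of 0.01 for Cdkn1a, the p21 induced by p53, 0.10 for Cdkn1b and 0.11 for Cdkn1c in high smoke against air. None was called either of 16 genes of the anaphase promoting complex or of 10 antiproliferative genes, where 16.3% of all genes were called. Lists this short do not show that their genes stay unchanged. Before adjustment, 1 inhibitor, 2 genes of the complex and 2 antiproliferative genes had a limma p below 0.05, with the count over all genes given above. In low smoke against air no gene of these lists was called, with 0 to 2 of each below 0.05 before adjustment. In high smoke against low smoke, where 6.78% of all genes were called, Rpa2 rose by 0.47 log2 units (limma adjusted p = 0.0219), Ube2s by 0.40 log2 units (adjusted p = 0.0174) and Zwint of the kinetochore by 0.27 log2 units (adjusted p = 0.0462), and Lin54 fell by 0.28 log2 units (adjusted p = 0.0248).

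Rpa3, Ube2s, E2f4 and Chek2 stayed called in high smoke against air when any single library was left out. In that comparison, scaling to the same total per library ended the calls of Rpa2, Gmnn, Cdt1 and Pkmyt1. Of the named genes of these lists, the exact rank-sum test kept only Rpa3, Chek2, Ncapg and Mybl2, and Ube2s and E2f4 were lost. Leaving out 1 library ended the call of Pole (high smoke replicate 7, adjusted p = 0.0503), Spc25 (high smoke replicate 1, 0.0521) and Ncaph (high smoke replicates 1 or 3, up to 0.0521). Rpa2 was lost without high smoke replicate 1, 3 or 7 (up to 0.0567), and Ncapg without high smoke replicate 1, 6 or 7 or air replicate 2 (up to 0.0639). Cenpu was lost without high smoke replicate 1 or 7 or air replicate 2, 3 or 4 (up to 0.0750), and Orc5 without high smoke replicate 3, 6 or 7 or air replicate 2, 4, 5 or 7 (up to 0.0899). Lin54 was lost without high smoke replicate 1, 5 or 7 or air replicate 1, 2, 4 or 5 (up to 0.101). Gmnn was lost without high smoke replicate 1, 2, 3 or 7 or air replicate 2, 4, 5 or 6 (up to 0.0898). Pkmyt1 was lost without high smoke replicate 1, 2, 3 or 7 or air replicate 1, 2, 4 or 6 (up to 0.0985). Mybl2 was lost without high smoke replicate 1, 3, 6 or 7 or air replicate 1, 2, 3, 4 or 6 (up to 0.0910). E2f3 and Cdt1 were each lost in 10 of the 22 omissions (up to 0.101 and 0.103). In high smoke against low smoke, Rpa2 was lost without high smoke replicate 1, 3 or 7 (up to 0.0670), Ube2s without high smoke replicate 1 or 7 (up to 0.0552), Lin54 without high smoke replicate 1, 3 or 7 or low smoke replicate 2 (up to 0.0742), and Zwint in 12 of 22 omissions (up to 0.122). Without high smoke replicates 1, 3 and 7 together, no gene of these lists was called in any comparison.

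Some lists of cell markers differed in sum between high smoke and air, and others overlapped. The summed level of 9 of 10 listed epithelial markers was 212751 to 280124 in high smoke, against 162688 to 208374 in air, without overlap, and 4 of 9 rose. That of 7 of 8 red cell precursor markers was 6073 to 13629 in high smoke, against 3887 to 5860 in air. The list includes globin genes, so its sum does not tell red cell precursors from blood held in the piece. Markers of macrophages and monocytes, 6 of 8 found, ran from 5703 to 7457 in high smoke, against 5593 to 7018 in air, those of T cells, 8 of 8, from 326 to 525 against 259 to 597, and those of B cells, 7 of 8, from 749 to 1668 against 450 to 1118. Of 5 endothelial markers 1 rose and 1 fell, and of 5 markers of fibroblasts and smooth muscle 2 rose. Over all genes tested 9.21% rose and 7.05% fell, and lists this short say little beside that. Calls are not given for the other lists. Markers of mast cells ran from 6106 to 7887 in high smoke, against 7082 to 8856 in air. Those of thymus ran from 252 to 385 against 283 to 406, and those of cardiac muscle from 137 to 1098 against 104 to 1310. None of the markers found was at 0 in every library. Their part in the results for Cdk4, Foxm1 and the other genes was not tested.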

How the data were processed

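RNA-seq of 22 rat lungs was analysed from 1 deposited table of 19249 genes by symbol. Per the submitters' processing notes, the tools were STAR 2.7.3a, Partek and DESeq2 and the build was rn6; how reads were assigned to genes and strand is not given in the sources used here. The deposited values are normalized counts, a signal that the authors scaled per library. Below 200 reads, 80.7% to 82.8% of them came within 0.02 of a whole read, so no count model was used. Of 23 labelled samples, high smoke replicate 8, marked as poor in quality, is without a column and was left out. Replicate numbers only name libraries.

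Values were set to log2(value + 1), genes with a mean of at least 10 were kept (14414), and limma 3.58.1 in R 4.3.3 fitted all 3 groups together (intensity trend on, robust off), two-sided, with Benjamini-Hochberg adjustment at 0.05. The model was tested on simulated data. The depth per library limits low genes most, and the SD and intervals cover the spread between libraries.

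The alternatives were other pseudocounts (0.5, 5), no filter or a filter of 50, 3 other scalings, array weights, robust on, only the 2 groups compared, the exact rank-sum test, each library left out, and high smoke replicates 1, 3 and 7 left out together. Values in every library or their range are given for members past the threshold and for Mki67, Top2a, Ccnd1 and Cdk1; the other members are given by values where they help; of each pathway list up to 4 genes past the threshold with the smallest p are named in each comparison, and Cdkn1a, Cdkn1b and Cdkn1c always. The members, lists and rules were chosen with earlier results of these data known. Promoter letters come from RefSeq's GRCr8 and no coordinates were carried between builds.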

Additional observations from a re-analysis of the deposited data

Results flagged for a closer look

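A library far from the rest of its group was looked for in 165 gene and group combinations, of which about 1 in 20 would stand out by chance, and 11 did. Air replicate 3 was the highest of the air group in 3 of them: Ccne1 had 21.6 normalized counts there (the other air libraries 2.47 to 9.97), Mcm6 had 217 (116 to 141) and Foxm1 had 87.5 (44.9 to 62.9). Without that library the log2 change of Foxm1 in high smoke against air was -0.57 and still called (limma adjusted p = 0.0220).

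Air replicate 2 was the highest in 3 others: Pole had 114 (the other air libraries 84.2 to 96.4), Ncaph 173 (90.6 to 121) and Ncapg 64.2 (23.9 to 35.6). Cdk2 had 617 in air replicate 5 (the others 487 to 532). In high smoke replicate 4, Tyms had 127, above 71.0 to 85.9 in the other high smoke libraries, and Cdkn1a had 270.3, below 409 to 501. In low smoke, Birc5 had 10.8 in replicate 4 (the others 2.05 to 5.84) and Zwint 784 in replicate 7 (531 to 649).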

How the results depend on the processing

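No paired analysis was possible because nothing in the labels ties rats across groups. Cdk4 and Foxm1 were called in high smoke against air in 32 of 34 alternatives, and no direction of a called gene was turned. The tally includes the omission of each low smoke library, which cannot move the log2 change of this comparison. The exact rank-sum test called 746 genes and 0 members, only the 2 groups compared gave 1363 genes, and leaving out high smoke replicates 1, 3 and 7 left 124 genes and 0 members. Scaling to the same total shifted the median of all genes by -0.08 and gave 894 genes up and 1797 down, against 1327 and 1016. In low smoke against air the last omission gave 1 gene. In high smoke against low smoke the rank-sum test called 183 genes, that omission 0, and a pseudocount of 5 or a filter of 50 called 1 member, Cdk4. Leaving out each library gave 1453 to 2863 genes and 2 to 3 members in high smoke against air, 0 to 2 genes and 0 members in low smoke against air, and 29 to 1651 genes and 0 to 2 members in high smoke against low smoke. In high smoke against air the count was 1453, 1461 and 1550 without high smoke replicates 1, 3 and 7 in turn. In high smoke against low smoke it was 35, 51, 1651, 1575 and 29 without high smoke replicates 1, 3, 4, 6 and 7, and 316, 296, 550 and 399 without low smoke replicates 1 to 4. The causes were not tested. Genes with few reads, such as Birc5 and Rrm2, are limited by depth.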
